A study of Mus musculus with 6 samples.

Results

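Serpins are a superfamily of proteins named after the serine proteases that most of them inhibit. The protein-coding genes of mouse whose symbol is Serpin followed by a clade letter from a to i and a number were taken from the table of liver transcripts, by their GRCm38 symbols. The choice used names alone and no measured value. It gave 61 genes of the 56305 in the table, 24 of them in clade A, 26 in clade B and 11 in clades C to I.

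RNA-Seq was performed on the livers of 3 WT and 3 Vps15LKO mice, all male and 5 weeks old, which had free access to food and whose livers were taken at ZT6, that is 6 h after lights on. Vps15LKO mice carry floxed Vps15 alleles and a Cre transgene driven by the promoter of albumin, a gene of hepatocytes (AlbCre+;Vps15f/f). In which liver cells recombination took place was not measured here. Whether the WT mice also carried floxed alleles or Cre is not given in the sources used here. Vps15 is the regulatory subunit of class 3 PI3K, and the comparison asks which transcripts differ when its gene is deleted in the liver. Each library came from 1 liver, and the p-values measure the spread between these livers.

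An inhibitory serpin exposes a flexible reactive loop as bait. When the protease cuts the loop, the serpin refolds and keeps the protease covalently bound, so each inhibitor molecule is used once. Clade A serpins and those of clades C, D, F and G are mostly secreted by hepatocytes and circulate in plasma, where they restrain clotting, fibrinolysis, complement and neutrophil proteases. Clade B serpins lack a classical signal peptide and act mainly inside cells. Several members are no inhibitors at all but carry hormones or help collagen to fold. In the mouse, genes that are single in human, such as those of alpha-1-antitrypsin and antichymotrypsin, were copied into clusters.

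The libraries held 16137093 to 18110223 reads on genes, and the deposited values are read counts divided by a size factor per library, which was 0.742 to 0.801 for WT and 1.23 to 1.41 for Vps15LKO livers. A gene with an equal share of the reads therefore has a lower normalized count in a Vps15LKO liver. Scaling to equal totals of reads moved the median log2 fold change over all tested genes from −0.02 to 0.70, and members whose direction turned with it are named below. The targeted gene, Pik3r4, which encodes Vps15, had 508, 573 and 459.7 normalized counts in WT livers, against 341, 362 and 355 in Vps15LKO livers (log2 fold change −0.54, adjusted p = 0.0021, limma), and its log2 fold change was 0.19 under total-read scaling. Its count covers the whole gene, including what is left after recombination. The summed normalized counts of 10 hepatocyte markers ranged from 2839111 to 3250179 in WT and from 809374 to 1234419 in Vps15LKO livers, with 9 of the 10 called lower. Most of this sum was Alb, the marker that was not called, although its WT and Vps15LKO values did not overlap (log2 fold change −1.48). Its standard error in limma was 1.38 (adjusted p = 0.37), while edgeR on the recovered reads gave an adjusted p of 0.0093. Without Alb the sums were 808252 to 899764 and 188639 to 265484. Those of 10 macrophage markers ranged from 6878 to 7693 and from 21108 to 23349, with 7 called higher and 1 lower. The 10 stellate cell and fibroblast markers ranged from 7041 to 7502 in WT and from 27918 to 32757 in Vps15LKO livers, all 10 called higher. The 8 cholangiocyte markers ranged from 1269 to 1419 and from 12343 to 23813, and all 7 that were tested were called higher, 1 of which (Cftr) passed the filter through its Vps15LKO values alone. The part of these cell types in the serpin results below was not tested.

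Serpin transcripts made up a large share of the WT liver reads and a smaller one of the Vps15LKO reads. The 61 genes together took 4.83%, 4.03% and 4.77% of the reads in WT livers and 1.14%, 1.39% and 1.09% in Vps15LKO livers, with every WT share above every Vps15LKO share. The 95% Wilson intervals of the shares, which cover counting error only, reached from 4.03% to 4.04% for the lowest WT liver and from 1.38% to 1.40% for the highest Vps15LKO liver. In bulk liver, fewer cells of a type and less RNA per cell cannot be told apart.

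A total of 38 members reached 20 normalized counts in 3 or more livers and were tested with limma on log2(normalized count + 1). A call required an adjusted p below 0.05 together with a fold of 1.2 or more. Of the 38, 15 were called higher and 18 lower in Vps15LKO livers, where 33.5% of the 15430 tested genes were called higher and 33.0% lower, so that 33 members and 66.5% of all genes were called in either direction. The WT and Vps15LKO values did not overlap for 33 of the 38, and for 73.2% of all tested genes. With so many genes called, these counts describe the family rather than set it apart. Under total-read scaling 16 members were called higher and 15 lower, where 66.7% and 11.1% of all genes were (77.8% in either direction). With quantile normalization 15 were higher and 14 lower, against 31.2% and 37.0% of all genes (68.2% in either direction). The counts called in the gene lists below stand beside the same shares of all genes. The median log2 fold change was −0.63 over the tested members and −0.02 over all genes, and 0.09 and 0.70 under total-read scaling. The 2 large clades lay on opposite sides. In clade A, 1 of 18 tested members was called higher and 12 lower (median −2.95), whereas in clade B 10 of 11 were called higher and 1 lower (median 5.53). The clade B median was 3.60 when members with 0 WT reads were set to the bounds given below. Under total-read scaling these counts were 2 and 10 in clade A and 10 and 0 in clade B, and with quantile normalization 2 and 11 and 9 and 1. In total, 30 members passed the filter in both genotypes, 1 (Serpina9) through its WT values alone and 7 through their Vps15LKO values alone, namely Serpini1 and 6 of the 11 clade B members, and these 8 had to differ in the direction they did.

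**Figure D1:**
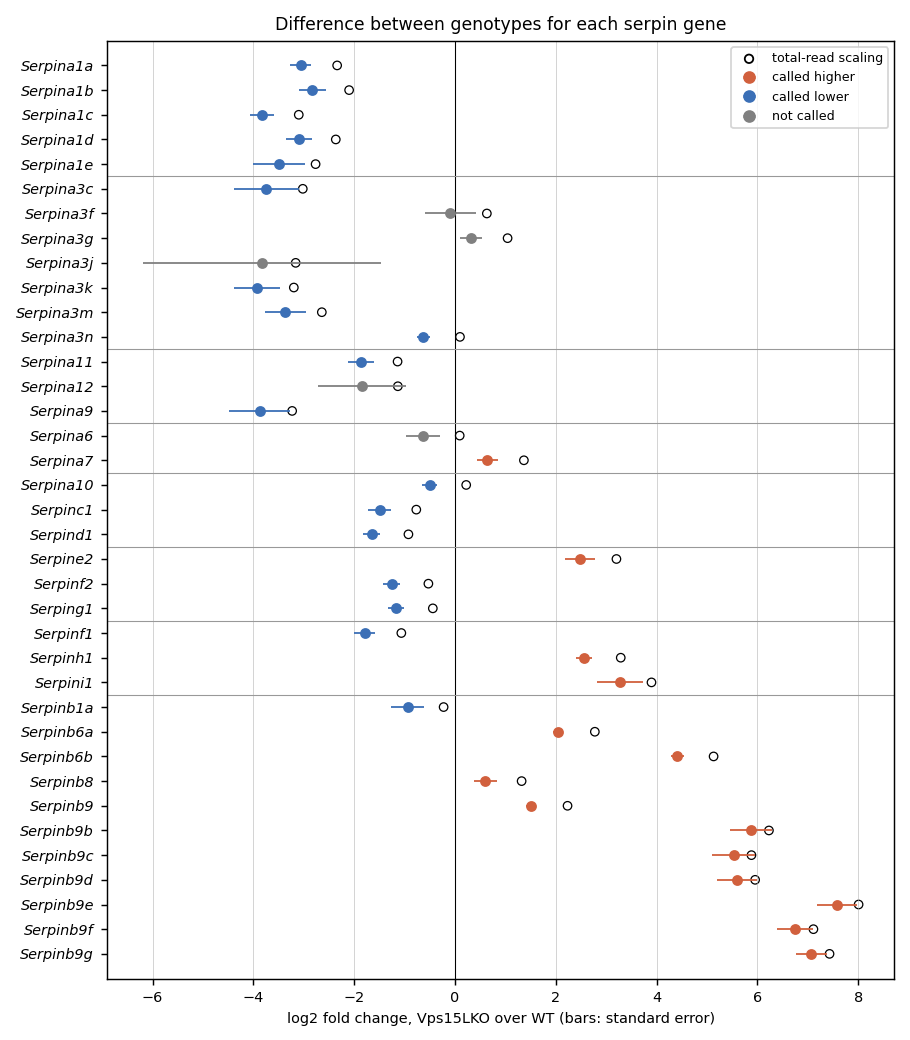
The log2 fold change of each tested serpin that is named (filled points, bars are standard errors from limma) with the value under total-read scaling as an open circle. All Serpina1 copies lie left of −2.5 and all Serpinb9 copies other than Serpinb9 itself right of 5, whereas Serpina3f, Serpina3n, Serpina6 and Serpina10 cross 0 under total-read scaling. The values of Serpinb9b to Serpinb9g depend on the added count of 1, since their WT values are at or near 0.

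The genes of alpha-1-antitrypsin, the main plasma inhibitor of neutrophil elastase, lay far lower in the livers of Vps15LKO mice. Serpina1a to Serpina1e occupy chromosome 12 from 103728156 to 103958975. All 5 were called lower, by 2.83 to 3.83 on the log2 scale, and were also called lower under total-read scaling and with quantile normalization. The sixth copy, Serpina1f, had at most 1 read in any library. Because the copies are near-identical, the RefSeq bases upstream of their start sites (GRCm38.p6) are shown, with the hexamer GTTAAT from the palindrome bound by the hepatocyte factor HNF1, in capitals.
Serpina1a (chr12:103863627-103863720, minus strand): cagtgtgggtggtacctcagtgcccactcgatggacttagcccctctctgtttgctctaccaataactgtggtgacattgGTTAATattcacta
Serpina1b (chr12:103738202-103738295, minus strand): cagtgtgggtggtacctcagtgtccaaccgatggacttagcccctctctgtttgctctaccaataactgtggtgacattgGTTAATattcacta
Serpina1c (chr12:103904964-103905057, minus strand): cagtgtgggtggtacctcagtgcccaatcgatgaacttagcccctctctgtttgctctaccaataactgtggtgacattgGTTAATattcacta
Serpina1d (chr12:103773636-103773729, minus strand): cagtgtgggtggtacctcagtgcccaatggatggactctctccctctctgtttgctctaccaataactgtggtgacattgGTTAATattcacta
Serpina1e (chr12:103956962-103957055, minus strand): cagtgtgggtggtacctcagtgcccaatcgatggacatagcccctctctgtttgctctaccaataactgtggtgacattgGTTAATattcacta
Compared base by base without gaps, the 5 stretches differed at 2 to 7 of 94 positions, the fewest among Serpina1a, Serpina1c and Serpina1e and the most between Serpina1b and Serpina1d. The hexamer began 78 bases before the start of Serpina1e and 16 to 27 bases before those of the others. GTTAAT was chosen after the sequences were seen. It was found, with both strands searched here and for each motif below, in the windows from 250 bases before to 50 bases after the start of 11 members, among them all 5 of these copies, and in 7.1% of the 32851 RefSeq windows of that length. Windows were found for 52 of the 61 members. Some of the 52 had more than 1, and their windows also numbered 61, of which 12 held GTTAAT. The E-box CACGTG, the motif of Bmal1–Clock, was in 7.15% of all windows and in 0 of the 61 member windows, and the full HNF1 palindrome was in 0.00913% and 0. The C/EBP palindrome TTGCGCAA was in 0.183% of all windows and, among members, in that of Serpina5, and the heat shock element in 0.603% of all windows and 0 of the member windows.

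Serpina1b (ENSMUSG00000071178) had the highest mean of the copies, with 196173, 174206 and 198227 normalized counts in WT livers, against 23959.6, 28343 and 27810.1 in Vps15LKO livers. Serpina1a (ENSMUSG00000066366) had 117385, 120464 and 97658 normalized counts in WT livers, against 13659, 14611 and 11773 in Vps15LKO livers. In Serpina1c (ENSMUSG00000079015) the values were 128921, 113984 and 112489.8 normalized counts in WT livers, against 6263, 10609 and 8685 in Vps15LKO livers. For each of these copies the 3 WT livers sat close together and well above all Vps15LKO livers, with log2 fold changes of −2.83, −3.07 and −3.83 (SE 0.26, 0.21 and 0.23) and adjusted p from 3.9e-06 to 3.0e-05 in limma. Serpina1d (ENSMUSG00000071177) had 103915, 70508 and 101180.0 normalized counts in WT livers, against 11265, 12995 and 8146 in Vps15LKO livers, a log2 fold change of −3.09 (SE 0.25, adjusted p = 1.5e-05, limma). Serpina1e (ENSMUSG00000072849) had 186274, 37946 and 47221 normalized counts in WT livers, against 5682, 7311 and 5617 in Vps15LKO livers. Here WT replicate 1 stood 4.91 times above WT replicate 2, while the 3 Vps15LKO livers lay within 1.30 times of each other and below all WT livers. The log2 fold change of Serpina1e was −3.49 (SE 0.52, adjusted p = 4.1e-04, limma) and −2.78 without WT replicate 1.

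Reads can be misassigned among such copies. Only 30.7% of the 100-base stretches of Serpina1c transcripts occur in no other gene, against 57.2% for Serpina1a, 70.7% for Serpina1d, 85.2% for Serpina1b and 85.6% for Serpina1e, so the split between copies is uncertain. Serpina1c also shares 429 bp of its exons with an antisense gene, and whether the counting used strand is not given in the sources used here. The sum over the 6 genes does not depend on the split among them. It was 732669, 517109.6 and 556776 in WT and 60828, 73869 and 62032 in Vps15LKO livers, a difference of −3.19 on the log2 scale (SE 0.18), which is 9.11-fold lower. The exact two-sided permutation p was 0.1, the smallest that 3 livers against 3 allow. Under total-read scaling the difference was −2.46.

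**Figure D2:**
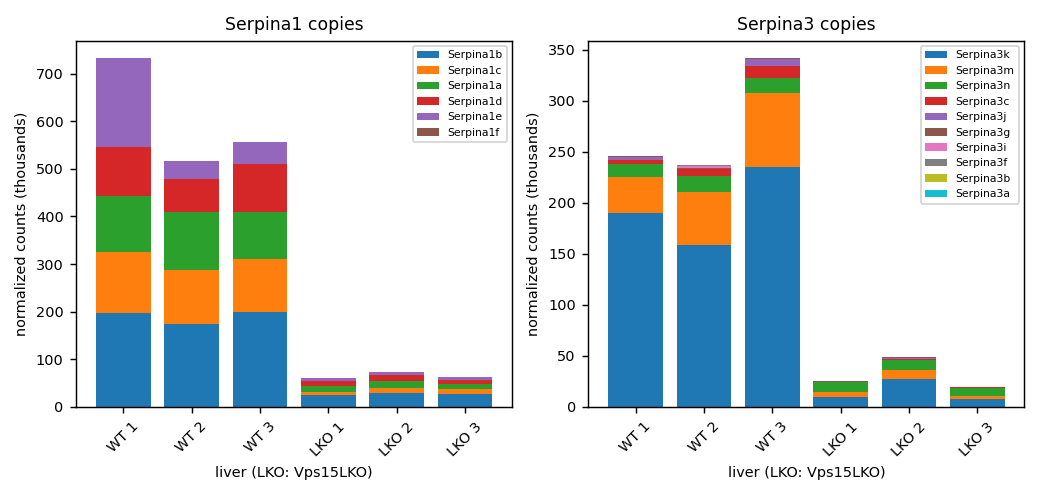
Stacked normalized counts (linear axis) of the Serpina1 copies (left) and Serpina3 copies (right) in each of the 6 livers. The Serpina1 stacks reach 517109.6 to 732669 in WT and 60828 to 73869 in Vps15LKO livers, and the purple Serpina1e segment is largest in WT replicate 1. The Serpina3 stacks are mostly Serpina3k and Serpina3m in WT livers.

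The antichymotrypsin-like Serpina3 genes lie near the Serpina1 cluster on chromosome 12. Of 10 genes, 7 were tested, 4 of them were called lower and 3 were not called. Serpina3k (ENSMUSG00000058207), which encodes the inhibitor contrapsin, had 189699.8, 158505 and 235187 normalized counts in WT livers, against 10033, 27318 and 7347 in Vps15LKO livers. All WT livers were above all Vps15LKO livers, of which replicate 2 was highest, and the log2 fold change was −3.93 (SE 0.46, adjusted p = 1.1e-04, limma). Serpina3m (ENSMUSG00000079012), which shares 60 bp of exon with Serpina3k, had 35543, 52596 and 72756 normalized counts in WT livers, against 4399, 9151 and 3054 in Vps15LKO livers, a log2 fold change of −3.37 (SE 0.40, adjusted p = 1.2e-04, limma). Serpina3c (ENSMUSG00000066361) had 4170.1, 7445 and 11583 normalized counts in WT livers, against 517, 1451 and 197 in Vps15LKO livers (log2 fold change −3.75, adjusted p = 9.4e-04, limma), with −4.47 without Vps15LKO replicate 2 and −3.04 without Vps15LKO replicate 3. In all 3 genes Vps15LKO replicate 2 was the highest and replicate 3 the lowest of its genotype, and the WT order was replicate 3 highest for each.

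Serpina3n (ENSMUSG00000021091), an inhibitor of granzyme B and elastase that rises in the acute phase, changed far less and its direction turned with the scaling. It had 12781, 15025 and 14701 normalized counts in WT livers, against 9739, 9299.5 and 8426 in Vps15LKO livers, without overlap, and a log2 fold change of −0.63 (SE 0.13, adjusted p = 0.0029, limma) that was 0.10 and not called under total-read scaling and 0.49 and called higher with quantile normalization. Serpina3g (ENSMUSG00000041481), an intracellular inhibitor of cathepsins in lymphocytes, had 333, 527 and 568 normalized counts in WT livers, against 683, 589.9 and 479 in Vps15LKO livers. Its groups overlapped and its log2 fold change of 0.32 (adjusted p = 0.21, limma) was called only under total-read scaling, where it was 1.04. Serpina3f (ENSMUSG00000066363) had 117, 481 and 111 normalized counts in WT livers, against 188, 211 and 129 in Vps15LKO livers, with WT replicate 2 far above the rest, and was not called (log2 fold change −0.09, adjusted p = 0.89, limma), with values on both sides of 0 among the other settings and a call as higher without WT replicate 2 (0.60).

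Copies of this cluster also varied strongly between mice of 1 genotype. Serpina3j (ENSMUSG00000079013) had 3087, 33.7 and 7061 normalized counts in WT livers, against 71.8, 1135 and 2.12 in Vps15LKO livers, so the highest WT liver held 209 times the lowest. Its groups overlapped and the log2 fold change of −3.84 (SE 2.36, adjusted p = 0.18, limma) was not called, but was called without WT replicate 2 (−6.20) or without Vps15LKO replicate 2, and was −1.66 without Vps15LKO replicate 3. Serpina3i (ENSMUSG00000079014) had 9.28, 2531 and 8.09 normalized counts in WT livers, against 13.7, 15.4 and 17.0 in Vps15LKO livers, so that its transcripts were plentiful in WT replicate 2 alone, 313 times the lowest WT liver, and it did not pass the filter. Over all tested genes the median ratio of the highest to the lowest liver was 1.26 in WT and 1.21 in Vps15LKO livers. WT replicate 2 thus held the most Serpina3i and Serpina3f and the least Serpina3j and Serpina1e of the WT livers. At least 93.9% of the 100-base stretches in each Serpina3 transcript were unique to it, and what lay behind this spread was not tested.

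The sum over the 10 Serpina3 genes was 245741, 237145 and 341979.7 in WT and 25657, 49177 and 19657 in Vps15LKO livers. The difference was −3.22 on the log2 scale (SE 0.43, exact permutation p = 0.1, the smallest possible). Without Serpina3k and Serpina3m the difference was −1.26, a setting chosen after the values were seen.

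**Figure D3:**
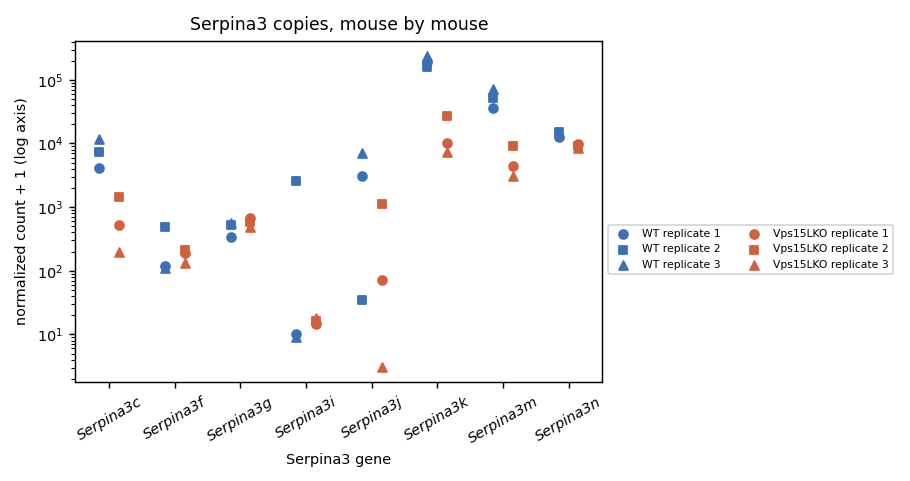
Normalized count + 1 (log axis) of 8 Serpina3 genes in each liver, with the symbol shape giving the replicate number. WT replicate 2 (blue square) is highest for Serpina3i and Serpina3f and lowest of the WT livers for Serpina3j, whereas the 6 livers sit close together for Serpina3g and Serpina3n.

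Plasma inhibitors of clotting were lower by smaller factors than the Serpina1 copies. Serpinc1 (ENSMUSG00000026715), which encodes antithrombin, the main inhibitor of thrombin and factor Xa, had 50056, 48109 and 39141 normalized counts in WT livers, against 15937, 20730.2 and 12717 in Vps15LKO livers. The groups did not overlap and the log2 fold change was −1.50 (SE 0.23, adjusted p = 4.4e-04, limma), but with quantile normalization it was −0.23 and not called. Exons of Zbtb37 on the other strand cover 34.4% of the Serpinc1 exon length. Serpind1 (ENSMUSG00000022766), heparin cofactor II, a thrombin inhibitor, had 14737, 13986 and 13182 normalized counts in WT livers, against 4541, 5504 and 3502 in Vps15LKO livers, and its log2 fold change of −1.65 (SE 0.17, adjusted p = 5.1e-05, limma) was called in every scaling tried (−0.93 under total-read scaling and −0.81 with quantile normalization). Serpina10 (ENSMUSG00000061947), the protein Z-dependent inhibitor of factor Xa, had 3074, 3293 and 4087 normalized counts in WT livers, against 2518, 2739.8 and 2096 in Vps15LKO livers (log2 fold change −0.51, adjusted p = 0.012, limma), and its sign turned under total-read scaling (0.22) and with quantile normalization (0.02), neither of them called.

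Genes of clotting and contact proteases, a list not limited to targets of these 3 serpins, were also lower with the deposited scaling. All 8 coagulation and contact proteases tested were called lower (median −1.67), 8 of 8 also under total-read scaling and 6 of 8 with quantile normalization, where F2 (−0.24), the thrombin gene, and F12 (−0.07) were not called. The gene with the largest fall was Klkb1, which encodes plasma kallikrein, at −2.60 (adjusted p = 4.3e-05, limma). Among 6 genes of cofactors and clearance receptors, 4 were called lower and 1 higher, with Proz, which encodes protein Z, the cofactor of Serpina10, at −1.79 (adjusted p = 3.8e-05, limma) and Vldlr, a receptor that takes up protease–serpin complexes, at 1.25 (adjusted p = 0.025, limma). The call of Vldlr was lost with quantile normalization (0.89) and without WT replicate 3 (0.79), Vps15LKO replicate 1 or Vps15LKO replicate 3. Under total-read scaling 3 of the 6 were called lower and 2 higher, and with quantile normalization 2 and 1.

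Serpinf2 (ENSMUSG00000038224), the plasmin inhibitor alpha-2-antiplasmin, had 23679, 22882 and 22300.1 normalized counts in WT livers, against 9859.5, 11373 and 7912 in Vps15LKO livers, without overlap, and a log2 fold change of −1.26 (SE 0.17, adjusted p = 2.0e-04, limma), which was −0.11 and not called with quantile normalization. Serping1 (ENSMUSG00000023224), the C1 inhibitor of complement and contact proteases, had 30018, 28814 and 29004 normalized counts in WT livers, against 12444, 14734 and 12065 in Vps15LKO livers, again without overlap, and −1.17 (SE 0.15, adjusted p = 2.1e-04, limma), but 0.07 and not called with quantile normalization. Serpine2 went the other way.

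Serpine2 (ENSMUSG00000026249), protease nexin 1, an inhibitor of thrombin and plasminogen activators made by many cell types, had 110.1, 89.9 and 47.2 normalized counts in WT livers, against 376, 411 and 545 in Vps15LKO livers, without overlap (log2 fold change 2.48, SE 0.29, adjusted p = 1.1e-04, limma). In the list of fibrinolytic proteases, Plat, which encodes tissue plasminogen activator, and Plau, which encodes urokinase, were called higher (for Plat log2 fold change 5.92, adjusted p = 2.4e-05, limma, a gene that passed the filter through its Vps15LKO values alone), whereas Plg, the plasminogen gene, was called lower (log2 fold change −1.80, adjusted p = 1.3e-04, limma). Of 6 complement proteases 5 were called lower, the most Masp2 at −1.63 (adjusted p = 2.1e-05, limma), 4 with total-read scaling and 3 with quantile normalization. The rise of Serpine2 went with higher sums of the stellate, macrophage and cholangiocyte markers given above, and of the neutrophil, T and NK cell and platelet markers given below. The part of these cells in it was not tested.

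Hormone carriers are clade A serpins that bind a hormone and release it when cut. Serpina6 (ENSMUSG00000060807), corticosteroid-binding globulin, had 12889.6, 14975 and 6993 normalized counts in WT livers, against 9467, 8083 and 4718 in Vps15LKO livers. The groups overlapped, and the log2 fold change of −0.63 (adjusted p = 0.12, limma) was not called, but was called lower without WT replicate 3 (−0.96), and was 0.09 under total-read scaling and 0.35 with quantile normalization. Serpina7 (ENSMUSG00000031271), thyroxine-binding globulin, on chromosome X from 139079257 to 139085236, was the clade A member called higher. It had 838, 542 and 929 normalized counts in WT livers, against 1120.3, 1425 and 1002 in Vps15LKO livers, so the highest WT liver lay just under the lowest Vps15LKO liver, and its log2 fold change of 0.64 (SE 0.21, adjusted p = 0.024, limma) passed in 3 of the 6 fits without 1 liver, not in those without WT replicate 2 (0.41), Vps15LKO replicate 1 (0.67) or Vps15LKO replicate 2 (0.50).

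The other tested clade A genes had lower means in Vps15LKO livers. Serpina11 (ENSMUSG00000063232) had 3547, 5060.1 and 5825 normalized counts in WT livers, against 1288, 1827 and 914 in Vps15LKO livers (log2 fold change −1.87, SE 0.26, adjusted p = 2.7e-04, limma), and 40.8% of its exon length is shared with the transcript Gm28577 on the same strand. Serpina9 (ENSMUSG00000058260), known from germinal-centre B cells, was low throughout, with 51.7, 28.7 and 187 normalized counts in WT livers, against 3.82, 4.05 and 2.83 in Vps15LKO livers (log2 fold change −3.88, SE 0.61, adjusted p = 5.3e-04, limma), and its log2 fold change was −3.13 without WT replicate 3. It passed the filter through its WT values alone and had to be lower, so this p is no support for the fall. Serpina12, which encodes the adipokine vaspin, had a log2 fold change of −1.85 (adjusted p = 0.088, limma) that was not called, while edgeR on the recovered reads called it (adjusted p = 0.028). It was also called lower with quantile normalization (−2.30) and without WT replicate 2 (−2.91) or without Vps15LKO replicate 3.

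**Figure D4:**
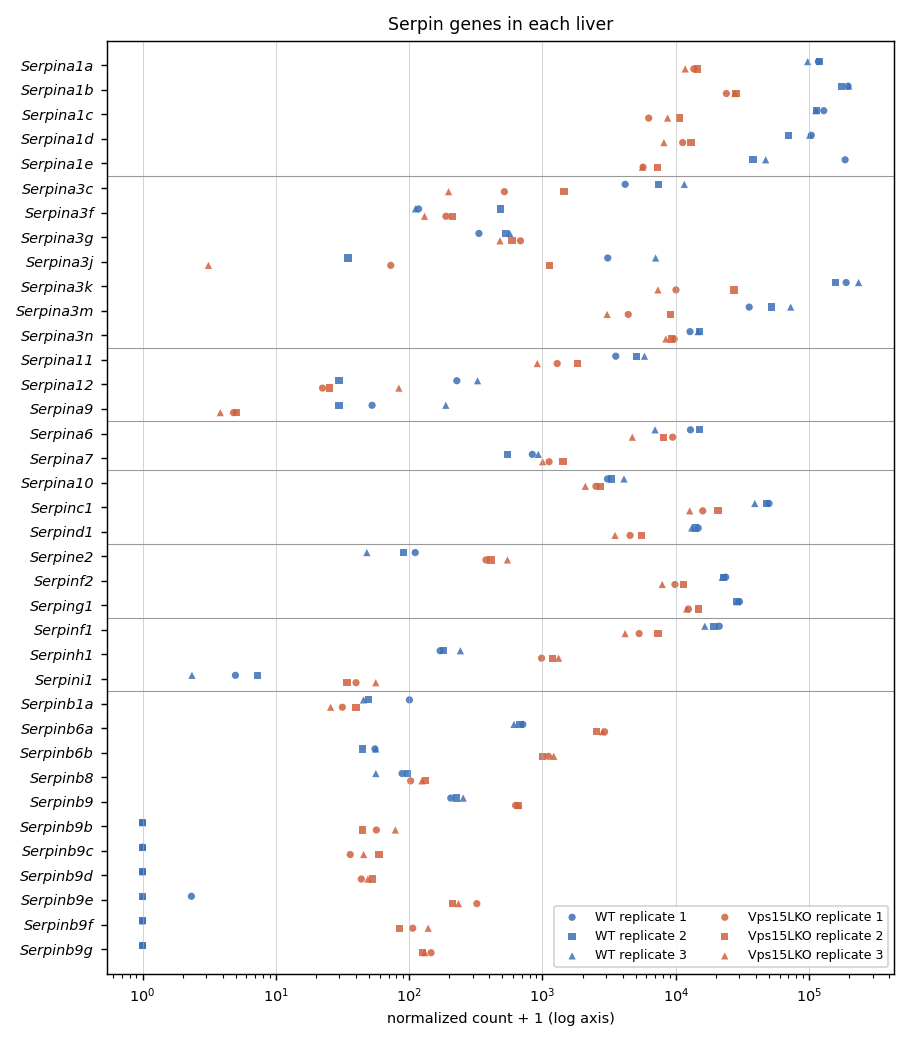
Normalized count + 1 (log axis) of the tested serpins that are named, in each liver, blue for WT and orange for Vps15LKO, with the symbol shape giving the replicate number and lines separating the groups by role. The Serpina1 copies (WT values between 37946 and 198227) and Serpina3k have the highest WT means, and Serpinb9b to Serpinb9g have WT values at or near 0.

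Members with roles outside plasma protease control included both directions. Serpinf1 (ENSMUSG00000000753), pigment epithelium-derived factor, an anti-angiogenic protein with no known inhibitor activity, had 21194, 19363 and 16506 normalized counts in WT livers, against 5309.7, 7359 and 4168 in Vps15LKO livers (log2 fold change −1.79, SE 0.21, adjusted p = 1.1e-04, limma). Serpinh1 (ENSMUSG00000070436), the collagen chaperone Hsp47 of the endoplasmic reticulum, had 169.7, 179.9 and 241 normalized counts in WT livers, against 984, 1187 and 1320.5 in Vps15LKO livers. All Vps15LKO livers held more than 4 times the highest WT liver, and the log2 fold change was 2.56 (SE 0.16, adjusted p = 4.4e-06, limma). The genes of its clients and of other collagen enzymes had 7 of 11 called higher and 2 lower, where 33.5% and 33.0% of all tested genes were. Under total-read scaling 10 were higher and 0 lower, where 66.7% and 11.1% of all genes were. With quantile normalization the counts were 9 and 0, against 31.2% and 37.0%. Of the 7, 1 (Plod2) had passed the filter through its Vps15LKO values alone. Col1a1 was at 4.39 (adjusted p = 1.6e-06, limma). P4hb, a subunit of prolyl hydroxylase, was at −0.67 (adjusted p = 0.0044, limma), which turned to 0.05 under total-read scaling and 0.55 with quantile normalization. Each of the 10 stellate and fibroblast markers, a list that holds Col1a1 and Col3a1 too, was also called higher, and their part in the rise of Serpinh1 was not tested. Serpini1 (ENSMUSG00000027834), neuroserpin, which inhibits tissue plasminogen activator in neurons, was at 3.98, 6.25 and 1.35 normalized counts in WT livers, against 38.9, 33.2 and 55.2 in Vps15LKO livers (log2 fold change 3.27, SE 0.46, adjusted p = 2.9e-04, limma). It passed the filter through its Vps15LKO values alone and had to be higher, so this p is no support for the rise.

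Of the 26 clade B serpins 15 were not tested, and of the 10 called higher in Vps15LKO liver 6 had passed the filter through those livers alone. The sum over the 26 genes was 1159, 1103 and 1022 normalized counts in WT and 5515, 4956 and 5537 in Vps15LKO livers, so all Vps15LKO livers were above all WT livers. The difference was 2.28 on the log2 scale (SE 0.07, 4.87-fold, exact permutation p = 0.1, the smallest possible). The gene with the highest mean was Serpinb6a, and without it the difference was 2.59.

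Serpinb6a (ENSMUSG00000060147), a cytosolic inhibitor of cathepsin G and related proteases, had 711, 678 and 611 normalized counts in WT livers, against 2922, 2529 and 2826 in Vps15LKO livers (log2 fold change 2.05, SE 0.10, adjusted p = 1.3e-06, limma). Exons of Nqo2, 1110046J04Rik and Ripk1 on the other strand cover 14.1%, 10.8% and 4.46% of its exon length. Its copy Serpinb6b (ENSMUSG00000042842) had 54.4, 43.7 and 55.3 normalized counts in WT livers, against 1107, 997 and 1214 in Vps15LKO livers. The Vps15LKO livers thus held at least 997 counts where no WT liver exceeded 55.3, and the log2 fold change was 4.41 (SE 0.13, adjusted p = 2.0e-07, limma). The 2 genes were at similar levels per length in Vps15LKO liver, 510.1 ± 37.9 and 489 ± 48.0 normalized counts per kb of exon (SD, n = 3), but not in WT liver, at 123 ± 9.44 and 22.6 ± 2.84. Serpinb1a, which inhibits neutrophil elastase, was the clade B member called lower (log2 fold change −0.94, adjusted p = 0.032, limma). Its call held in 3 of the 6 fits without 1 liver, not in those without WT replicate 1 (−0.58), Vps15LKO replicate 1 (−0.93) or Vps15LKO replicate 3 (−0.78), nor under total-read scaling (−0.23). Serpinb8, an inhibitor of furin, was called higher by a small margin (log2 fold change 0.60, adjusted p = 0.041, limma) and not with quantile normalization (0.14) or in 4 of the 6 fits without 1 liver, those without WT replicate 1 or 3 or Vps15LKO replicate 2 or 3, with values from 0.36 to 0.69.

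Serpinb9 (ENSMUSG00000045827) encodes the inhibitor of granzyme B that shields killer cells and their neighbours, and its copies Serpinb9b to Serpinb9g follow it on chromosome 13. Serpinb9 had 204, 226 and 253 normalized counts in WT livers, against 628, 657 and 658 in Vps15LKO livers, without overlap and with little spread (log2 fold change 1.51, SE 0.11, adjusted p = 7.9e-06, limma). The copies had 0 reads in WT livers, apart from 1 read of Serpinb9e. The hexamer TGACGT, chosen after the sequences were seen, lies in the RefSeq windows (GRCm38.p6) of 5 of these 6 copies and not in that of Serpinb9b. The bases before the start sites of those 5 are shown, with TGACGT in capitals.
Serpinb9c (chr13:33159766-33159859, minus strand): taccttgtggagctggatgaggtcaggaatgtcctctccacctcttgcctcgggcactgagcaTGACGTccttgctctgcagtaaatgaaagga
Serpinb9d (chr13:33192841-33192934, plus strand): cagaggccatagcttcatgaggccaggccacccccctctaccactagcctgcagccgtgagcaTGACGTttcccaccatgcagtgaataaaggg
Serpinb9e (chr13:33249495-33249588, plus strand): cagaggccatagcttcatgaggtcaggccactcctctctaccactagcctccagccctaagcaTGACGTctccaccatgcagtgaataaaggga
Serpinb9f (chr13:33323949-33324042, plus strand): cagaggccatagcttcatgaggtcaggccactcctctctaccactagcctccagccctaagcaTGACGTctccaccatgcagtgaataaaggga
Serpinb9g (chr13:33484673-33484766, plus strand): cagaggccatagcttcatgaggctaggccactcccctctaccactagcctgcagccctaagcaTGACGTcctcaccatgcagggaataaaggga
The stretches of Serpinb9e and Serpinb9f were the same at all 94 positions and that of Serpinb9g differed from them at 7, and TGACGT began 42 to 65 bases before the start in each. Serpinb9c and Serpinb9d, compared without gaps, matched at 53.2%. TGACGT was in 7.51% of all windows of 300 bases and in those of 6 members, these 5 and Serpina3b.

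Serpinb9e (ENSMUSG00000062342) was the highest of the copies, with 1.33, 0 and 0 normalized counts in WT livers, against 321, 211 and 233 in Vps15LKO livers. The single WT read puts the ratio of the groups at 586, with a 95% counting interval from 105 to 23173. Serpinb9g (ENSMUSG00000057726) had 0 reads in all WT libraries and 145, 126 and 130.1 normalized counts in the Vps15LKO livers, at least 34.1-fold higher against a floor of 3 reads per library. Serpinb9f (ENSMUSG00000038327) likewise had 0 reads in WT and 105, 83.5 and 138, at least 27.8-fold higher. These 2 transcripts are the hardest to tell apart, with 47.7% of the 100-base stretches of Serpinb9f and 61.5% of those of Serpinb9g found in no other gene, most of the rest being shared with Gm11397. Serpinb9b, Serpinb9c and Serpinb9d had 0 WT reads as well. The Vps15LKO livers held 55.7, 43.8 and 77.8 normalized counts of Serpinb9b, at least 15.1-fold higher. They held 35.1, 58.3 and 44.6 of Serpinb9c, at least 11.7-fold higher, and 42.8, 51.9 and 48.1 of Serpinb9d, at least 12.1-fold higher. All 6 copies were found in each of the 3 Vps15LKO livers, and their limma fold changes, from 5.53 to 7.57, depend on the added count of 1. The median of clade B with these genes at their bound was 3.60.

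**Figure D5:**
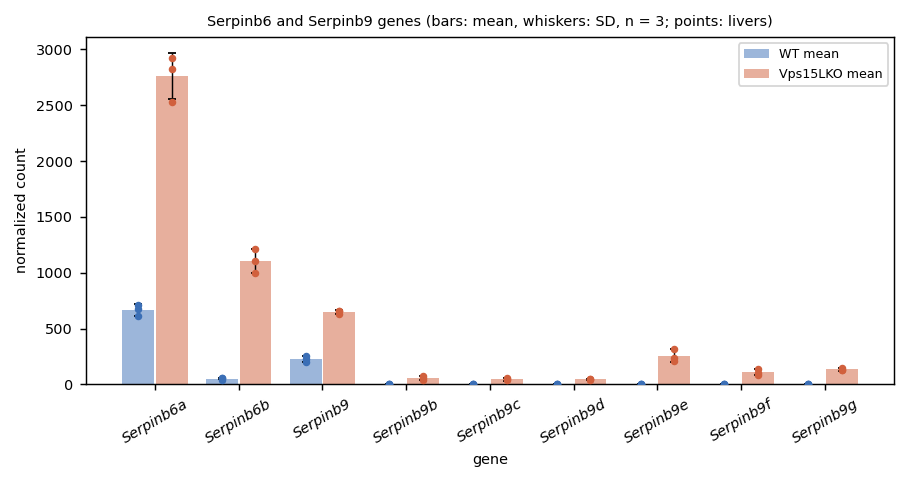
Mean normalized count (bars, linear axis from 0, whiskers SD, n = 3) of the Serpinb6 and Serpinb9 genes that were tested, with each liver as a point. In every gene the 3 Vps15LKO livers lie above the 3 WT livers, and the WT bars of Serpinb9b to Serpinb9g are at or near 0.

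Leukocyte proteases that clade B serpins neutralize were scarce. Of Elane, Prtn3, Ctsg, Gzma and Gzmb, only Prtn3, proteinase 3, passed the filter, through its Vps15LKO values alone, with 0, 3.75 and 6.74 normalized counts in WT livers, against 25.2, 34.0 and 23.3 in Vps15LKO livers, and the sum of the 5 ranged from 13.3 to 41.8 in WT and from 83.5 to 108 in Vps15LKO livers. The 8 neutrophil markers summed to 72.4 to 82.2 in WT livers and to 454 to 536 in Vps15LKO livers, with 4 of 4 tested called higher, 3 of which passed the filter through Vps15LKO values alone and had to be higher, and Ly6g at 0 in WT and at most 4.95 in Vps15LKO livers. The 8 T and NK cell markers ranged from 66.3 to 82.2 and from 233 to 290.2, with 4 of 5 called higher, all 4 of which had passed in that way. Among 5 markers of platelets and megakaryocytes the sums ranged from 71.6 to 79.5 and from 186 to 192, and both tested were called higher, 1 of them so selected. Of 5 squamous epithelial markers, a tissue in which many clade B serpins are made, Krt5 alone passed the filter, with 0 in all WT livers and 267, 252 and 329.6 in Vps15LKO livers, while Krt14, Krt6a, Dsg3 and Trp63 stayed at or below 5.30. The 8 endothelial markers, with 4 higher and 4 lower (5 and 0 under total-read scaling), ranged from 7469 to 8217 and from 6574 to 8211. Exocrine pancreas markers, with 2 of 2 tested lower and Pnlip and Cpa1 at 0 in all livers, ranged from 337 to 491 and from 116 to 152. The part of these cells in the clade B values was not tested.

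A further 23 members did not pass the filter. Apart from Serpina3i they reached at most 13.8 normalized counts in a liver, 20 of them never exceeded 10 and 10 had no read in any library. These were Serpina1f, Serpina3a, Serpina3b, Serpina5, Serpina16, Serpine3 and Serpini2 and, in clade B, Serpinb1b, Serpinb1c, Serpinb2, Serpinb3a to Serpinb3d, Serpinb5, Serpinb6c to Serpinb6e, Serpinb7, Serpinb11, Serpinb12 and Serpinb13. Serpina5, the protein C inhibitor, which is a plasma protein in human but is little made in mouse liver, had 0, 0 and 4.04 in WT and 5.35, 0.810 and 3.54 in Vps15LKO livers. Serpinb1b had 0, 0 and 1.35 in WT and 13.0, 13.8 and 7.07 in Vps15LKO livers. No level can be read from counts this low.

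Per length of exon, the order of the family also differed between genotypes. In WT livers Serpina3k led with 94538 ± 18747 normalized counts per kb (SD, n = 3), followed by Serpina1c at 87042 ± 6676, Serpina1b at 78483 ± 5513, Serpina1d at 65902 ± 13306, Serpina1a at 61046 ± 6755 and Serpina1e at 55956 ± 51385. Next came Serpina3m at 31199 ± 10836 and Serping1 at 12593 ± 278. The ranges of neighbours in this order overlapped for 28 of 37 pairs, and among the pairs that did not overlap were Serpina1c with Serpina1b and Serpina3m with Serping1. In Vps15LKO livers Serpina1b led with 11058 ± 990.3, although Vps15LKO replicate 2 had more Serpina3k per kb. Serpina1d at 7749 ± 1763, Serpina1a at 7286 ± 788, Serpina3k at 7243 ± 5269, Serpina1c at 6259 ± 1600.2 and Serping1 at 5626 ± 621 followed, and from Serpina1d to Serping1 the ranges of neighbours overlapped. By their means, Serpina3k thus came first in WT livers and after Serpina1b, Serpina1d and Serpina1a in Vps15LKO livers, but of the WT livers it was first in replicate 3 alone, with more Serpina1c per kb in replicates 1 and 2 and more Serpina1e in replicate 1. Serpinb6a and Serpinb6b reached levels per kb close to that of Serpina7 (483 ± 89.2).

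Genes that export or regulate plasma serpins were mostly lower with the deposited scaling. Of 8 genes of cargo export and quality control in the endoplasmic reticulum 7 were called lower, the most Lman1, the cargo receptor that carries alpha-1-antitrypsin, at −1.03 (adjusted p = 4.1e-05, limma), but with total-read scaling 1 was lower and 3 were higher, and with quantile normalization 2 and 1. Of 7 hepatocyte transcription factors 5 were called lower, the most Cebpa at −1.94 (adjusted p = 2.8e-05, limma). With total-read scaling 2 were called lower and 1 higher, and with quantile normalization 5 and 0. Growth hormone is known to act on Serpina3-type genes in rodent liver. Of 7 genes of its axis 4 were called lower and 0 higher, with the receptor gene Ghr at −2.998 (adjusted p = 3.6e-06, limma), whereas 3 were lower and 3 higher under total-read scaling. Among 15 acute-phase genes 7 were lower and 2 higher, from Fgg at −2.06 (adjusted p = 9.7e-05, limma) to Lcn2 at 5.60 (adjusted p = 6.9e-06, limma), and 7 and 5 under total-read scaling and 7 and 4 with quantile normalization. Plasma protease inhibitors outside the serpin family had 7 of 13 lower and 2 higher, from Mug1 at −2.91 (adjusted p = 4.4e-05, limma) to A2m, which passed the filter through its Vps15LKO values alone, at 3.65 (adjusted p = 6.0e-04, limma), and 4 and 5 under total-read scaling and 2 and 6 with quantile normalization.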

How the data were processed

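RNA-Seq reads came from 3 WT and 3 Vps15LKO livers, with groups and replicate numbers from the labels. Libraries were poly(A)-selected and stranded. After filtering, the authors used HISAT2 to map to GRCm38, featureCounts for counting per gene and DESeq2 for normalization. Tool versions and the strand and multi-mapping settings are not given in the sources used here. What was deposited is a signal, read counts divided by 1 size factor per library, without a filter. Values were whole multiples of 1 step for 100% of genes in each library (tolerance 0.01), so whole reads were recovered, and depth ranged from 16137093 to 18110223 reads. Chi-square per gene between replicates of a genotype was 14.0 to 36.4, which sets every pair of libraries apart. All 6 columns of values were used.

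Symbols, coordinates and exon lengths came from GENCODE release M21 (55141 of 56305 genes matched), and promoter windows from RefSeq (GRCm38.p6, 52 of 61 members matched). Serpina10, Serpina3k, Serpina3m, Serpina6, Serpina9, Serpinb13, Serpinb1a and Serping1 are among those for which no window was matched, which does not show that RefSeq lacks them. The 15430 genes that reached 20 normalized counts in 3 or more livers were compared with limma 3.58.1 (lmFit, eBayes with trend) in R 4.3.3 on log2(normalized count + 1), a scale that understates changes of low genes, and adjusted over all of them by Benjamini-Hochberg. Unless said otherwise, every adjusted p is from this test. Single sums were compared with a two-sided exact permutation test, for which 0.1 is the smallest p. A group at 0 reads was set to a floor of 3 reads per library. The ratio of few reads has an exact counting interval.

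All tested members are named except 1, which counts in the totals and is not reported here. Values per liver are given for members whose mean reached 200 normalized counts, or that were called with a log2 fold change of at least 2 in size. In each other list the largest called rise and fall are named. Plau, F2, F12, Krt5, Cftr, Plod2, Serpina5 and Serpinb1b were added after their values were seen, and so was the pattern of WT replicate 2. The members were taken by symbol alone, but the family as a subject and the other gene lists were chosen with earlier results of these data known. Alternatives were other pseudocounts, filters, thresholds and scalings, limma without trend, edgeR 4.0.16 and DESeq2 1.42.0 on the recovered reads, a replicate block, and each liver left out. Python 3.11.15, numpy 2.4.6, pandas 2.3.3, scipy 1.17.1 and matplotlib 3.10.9 were used.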

Additional observations from a re-analysis of the deposited data

How the results depend on the processing

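Of 684 comparisons of a member's log2 fold change with an alternative, 646 kept direction and call, 16 lost the call, 11 gained it and 11 turned sign. The turns were Serping1 (0.070), Serpina10 (0.019), Serpina6 (0.35) and Serpina3n (0.49) with quantile normalization, Serpina10 (0.22), Serpina6 (0.092), Serpina3f (0.63) and Serpina3n (0.10) under total-read scaling, and Serpina3f under upper-quartile scaling (0.032) and without Vps15LKO replicate 3 or WT replicate 2, with values from −0.46 to 0.60 over the fits without 1 liver. Among the genes named with a value outside the 61, P4hb turned with quantile normalization (0.55) and total-read scaling (0.053), and Pik3r4 under total-read scaling (0.19), as did Serpina3e-ps (0.17, not called). Total-read scaling moved the log2 difference of the summed Serpina1 copies to −2.46, of the summed Serpina3 copies to −2.49 and of the summed clade B serpins to 3.01, which upper-quartile scaling moved to 2.41. Leaving out the copy with the highest mean gave −2.27 for Serpina3 and 2.59 for clade B, and leaving out both Serpina3k and Serpina3m, added after the data were seen, gave −1.26. With each liver left out the difference ranged from −3.29 to −3.04 for Serpina1, from −3.59 to −2.93 for Serpina3 and from 2.24 to 2.34 for clade B, and 13 to 15 members were called higher and 17 to 20 lower. Without a filter 19 members were called higher. edgeR and DESeq2 each called 15 higher and 19 lower. With replicate number as a block 15 were higher and 20 lower, Serpina6 and Serpina12 being the calls gained. Deviations of same-numbered livers correlated at −0.01, −0.01 and 0.05, so the numbers share no more than a name. The cause of these changes was not tested, and 3 livers per genotype limit the precision.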

Other observations

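Serpin genes of other types, which the choice of members left out, were measured too. Serpina4-ps1, an unprocessed pseudogene on chromosome 12 from 104080649 to 104086724, had 1098, 432 and 2501 normalized counts in WT livers, against 0, 9.72 and 0.707 in Vps15LKO livers, so that it passed the filter through its WT values alone and its log2 fold change (−8.65) depends on the added count of 1. In Serpina3l-ps, beside Serpina3k, the values were 1864, 5402 and 5950.1 normalized counts in WT livers, against 239.8, 1098 and 57.3 in Vps15LKO livers (log2 fold change −3.97, adjusted p = 0.0048, limma), with −5.05 without Vps15LKO replicate 2 and −2.93 without Vps15LKO replicate 3. Serpina3h had 139, 453 and 696 normalized counts in WT livers, against 35.1, 101 and 19.1 in Vps15LKO livers (log2 fold change −3.07, adjusted p = 0.0037, limma), with values from −3.74 (without WT replicate 1) to −2.54 (without Vps15LKO replicate 3) over the fits without 1 liver. Serpina3e-ps had 79.6, 172 and 163 normalized counts in WT livers, against 109, 122 and 53.0 in Vps15LKO livers, with overlap and no call (log2 fold change −0.55, adjusted p = 0.22, limma). For Serpina3d-ps no WT library held a read, and the Vps15LKO livers had 9.16, 4.86 and 12.02. Serpinb10, listed as a polymorphic pseudogene, had 0, 2.50 and 0 normalized counts in WT livers, against 22.1, 15.4 and 14.9 in Vps15LKO livers.

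Agt, which encodes angiotensinogen, a serpin by fold that serves as the source of angiotensin, carries no Serpin symbol. It had 20199.5, 18467 and 15927 normalized counts in WT livers, against 7665, 9095 and 7394 in Vps15LKO livers, without overlap (log2 fold change −1.18, SE 0.15, adjusted p = 1.7e-04, limma). Its log2 fold change was −0.08 and not called with quantile normalization. Gm11397, which lies among the Serpinb9 copies on chromosome 13 from 33395761 to 33405285 and shares sequence with Serpinb9f and Serpinb9g, had 0 reads in all WT libraries and 16.8, 6.48 and 14.9 normalized counts in the Vps15LKO livers.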
